A study of Rattus norvegicus with 6 samples.

Results

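DNA replication and nucleotide synthesis genes were followed in primary neonatal rat cardiomyocytes after treatment with hCT1, human cardiotrophin 1, a cytokine of the interleukin-6 family that acts through the gp130 receptor. The set comprised 55 named genes of origin licensing, the MCM helicase, S phase entry, the DNA polymerases, the sliding clamp and its loader, deoxynucleotide supply and chromatin assembly behind the fork. A gene entered through a probe set that the platform annotation pairs with its symbol alone, and where a gene had several, the brightest over the 6 samples was taken. In this way 50 of the 55 genes were measured, out of 14506 genes in all; Mcm3, Mcm4, Dbf4, Pole2 and Chaf1a were not analysed here.

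The cells came from the ventricles of 2-day-old Sprague-Dawley rats and were pre-plated to deplete fibroblasts, so that the culture is a primary mixture rather than a line. The hCT1 group (3 samples) received hCT1 at 0.5 nM for 24 h, and the Ctrl group (3 samples) received control serum-free medium for the same 24 h. Total RNA of each sample was hybridised to 1 Affymetrix whole-transcript rat array. For all 6 samples, controls too, the records list a hypertrophic agonist in the growth medium. If it was present, each comparison below was made in its presence. The methods of the study, though, describe serum-free medium as a non-hypertrophic control, and name no agonist for the control cells of the arrays. RNA was prepared in triplicate, but no source says whether each came from its own culture, and the p-values may therefore reflect technical spread alone.

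A cell copies its DNA once per division. In G1 the origin recognition complex, Cdc6 and Cdt1 load the MCM helicase onto origins, and at the start of S phase the kinases Cdc7 and Cdk2 recruit Cdc45 and the GINS complex, which turn the loaded MCM ring into a moving helicase. Primase and the polymerases then copy the opened strands on the sliding clamp Pcna, with deoxynucleotides made by ribonucleotide reductase and thymidylate synthase. Many of these genes are transcribed in late G1 by E2F factors, and rat cardiomyocytes leave the cell cycle in the first days after birth.

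Of the replication genes, 25 of 50 were lower with hCT1 and none was higher. This count is by limma, with Benjamini-Hochberg adjusted p under 0.05 over all probe sets with 1 symbol, and the other 25 genes did not pass. Over all 14506 genes 9.58% were lower and 5.09% were higher, and among genes at least as bright as the dimmest of the 50 the share lower was 14.7%. The median log2 fold change (hCT1 minus Ctrl) was -0.209 over the 50 genes, with a range of -0.756 to 0.157. It was 0 over all genes and -0.046 over the equally bright ones. Of the 50 genes 45 had negative values, beside 50.1% of all genes and 60.9% of the equally bright ones. Without adjustment, at p under 0.05, limma gave 34 genes lower and 0 higher and a one-way test 32 and 0. No share of all genes was taken at an unadjusted p, here or for the unadjusted counts below. In 35 of the 50 genes every hCT1 sample lay below every Ctrl sample, which was so for 20% of all genes, and none of the 50 showed the opposite. This share was not taken over the equally bright genes, which leaned lower in the measures above. In bulk samples such as these, fewer cycling cells and less RNA per cell cannot be told apart.

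The heat map of the replication genes shows the same in each sample. Set against the Ctrl mean of each gene, the median over the 50 genes was -0.207, -0.216 and -0.207 in hCT1 replicates 1, 2 and 3, and 45, 40 and 45 genes lay below that mean. In Ctrl replicates 1, 2 and 3 the medians were -0.02, 0.015 and 0.022. The SD of a gene within a group had a median of 0.057 in Ctrl and 0.056 in hCT1 samples, on the log2 scale. The count of 25 depended on the samples: without Ctrl replicate 2, hCT1 replicate 1 or hCT1 replicate 2 it was 16 in each case. The 15 largest changes, which were picked in these same samples, kept an adjusted p under 0.05 whichever sample was left out.

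**Figure D1:**
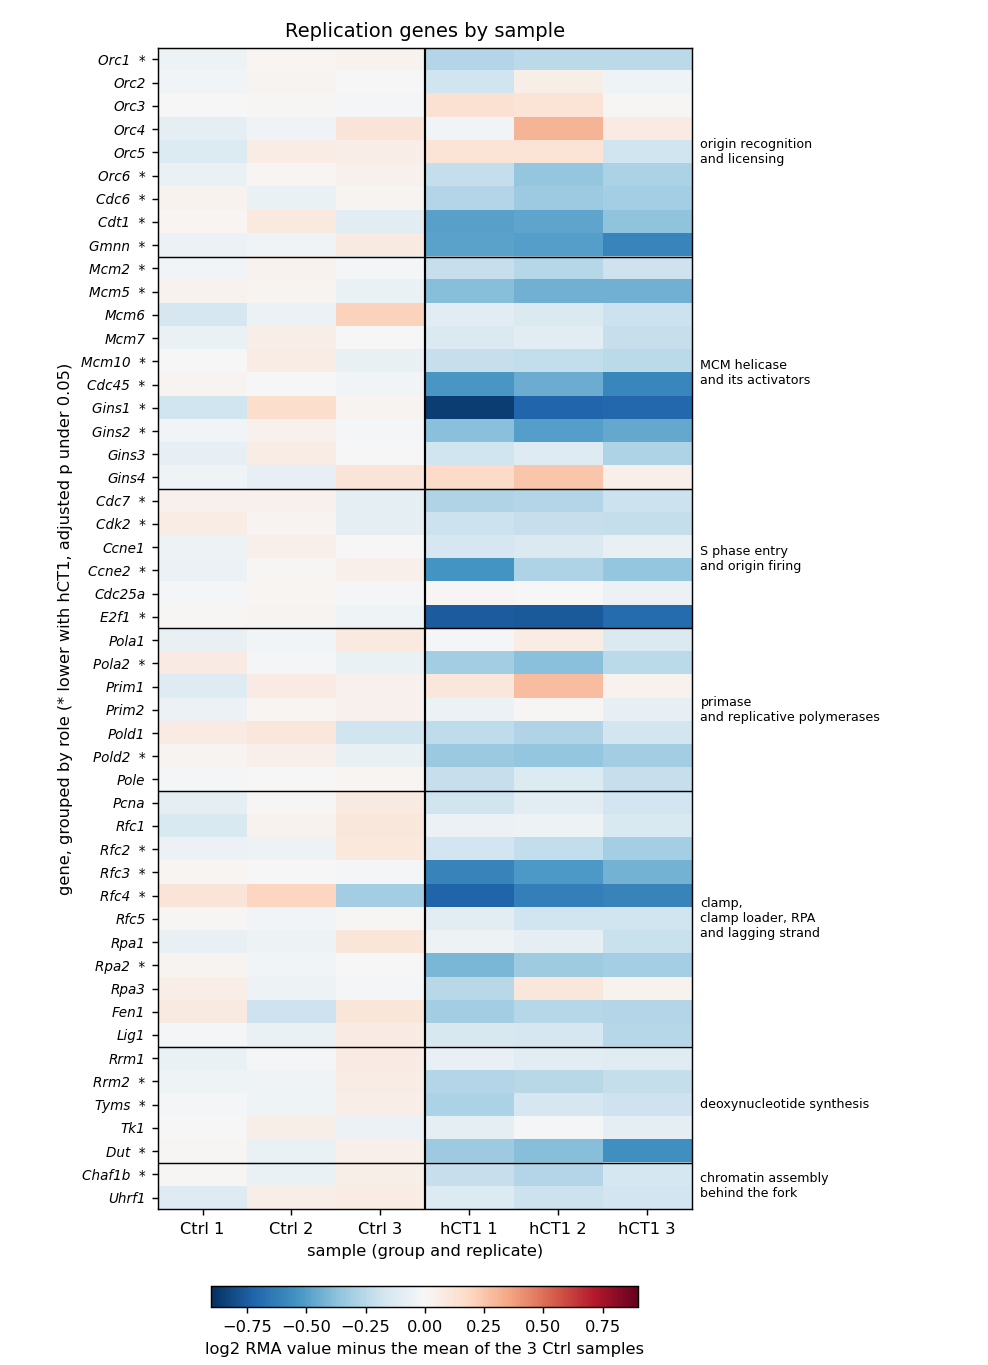
Heat map of the 50 replication genes (rows, grouped by role) in the 3 Ctrl and 3 hCT1 samples (columns); colour is the log2 RMA value minus the mean of the 3 Ctrl samples, blue for lower and red for higher, and an asterisk marks the 25 genes lower with hCT1 (limma, adjusted p under 0.05). The hCT1 columns are mostly blue, with medians of -0.207, -0.216 and -0.207, and the Ctrl columns are pale.

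Across the whole table, samples of a group correlated at 0.997 to 0.998 and samples of different groups at 0.994 to 0.996 (Pearson's r over all probe sets), and no sample stood apart. Cardiomyocyte markers were bright, with a mean log2 value of 10.72 to 10.741 over 12 genes in Ctrl samples and 10.501 to 10.555 in hCT1 samples; 5 of the 12 were lower, led by Tnni3 (-0.62) and Myh6 (-0.45). Of 12 fibroblast markers limma called none (at an unadjusted p under 0.05 limma gave 2 lower and 1 higher, Dcn at 0.18, and the one-way test 2 lower and 0 higher), with mean levels of 8.39 to 8.401 in Ctrl and 8.319 to 8.378 in hCT1 samples. The 8 smooth muscle and pericyte markers had mean levels of 9.397 to 9.441 and 9.279 to 9.306 with 3 lower, led by Myh11 (-0.39). The 12 endothelial markers had 6.835 to 6.935 and 6.954 to 7.013, with 1 lower (Emcn, -0.47) and 1 higher (Kdr, 1.18). The 11 leukocyte markers had 5.37 to 5.474 and 5.2 to 5.342 with 1 lower (Lyz2, -0.52). At an unadjusted p under 0.05 limma gave 4 leukocyte markers lower and the one-way test 1, with none higher. Microarray values have no zero, and the leukocyte markers Ptprc and Cd3e lay at percentiles 23.2 and 19.7 of Ctrl signal. The median log2 fold change was -0.12 over the cardiomyocyte, -0.055 over the fibroblast and -0.027 over the smooth muscle and pericyte markers. It was 0.072 over the endothelial markers and -0.175 over the leukocyte markers. The part of these shifts in the replication genes was not tested.

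The promoters of these genes were read for sequence features, which the choice of genes had not used. An E2F core was searched as TTTCCCGC, TTTGGCGC, TTTCGCGC or TTTGCCGC on both strands, with overlapping matches kept, in RefSeq promoters of assembly GRCr8 that run from 250 bases before to 50 after the start of a gene. Of the 50 genes 42 had an entry, with 45 promoters; Orc1, Orc4, Cdc6, Gins4, Ccne2, E2f1, Rpa3 and Rrm2 had none. The core was in 18 of 45 promoters (40%), beside 2.14% of all 33469 promoters in the table and 3.08% of the 12519 promoters of genes on the platform. The windows that follow run from 70 bases before to 30 after the start, 5′ to 3′ on the strand of the gene, and capitals mark the E2F core on either strand. They were picked after the matches were seen, to show genes lower with hCT1 with a core near the start (Gins1 to Tyms), genes with a core that did not pass the test (Pole, Lig1), and a gene that was lower with none of these letters in its promoter (Cdc45).
Gins1 (chr3:160184850-160184949, plus strand): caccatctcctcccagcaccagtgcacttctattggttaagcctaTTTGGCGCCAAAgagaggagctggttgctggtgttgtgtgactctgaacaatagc
Rfc3 (chr12:5836498-5836597, plus strand): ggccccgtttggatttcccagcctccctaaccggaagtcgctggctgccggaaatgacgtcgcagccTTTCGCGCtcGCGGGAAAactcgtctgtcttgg
Mcm2 (chr4:122918065-122918164, minus strand): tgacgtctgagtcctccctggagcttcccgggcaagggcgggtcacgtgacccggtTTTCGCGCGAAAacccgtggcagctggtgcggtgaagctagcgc
Mcm5 (chr19:13488743-13488842, plus strand): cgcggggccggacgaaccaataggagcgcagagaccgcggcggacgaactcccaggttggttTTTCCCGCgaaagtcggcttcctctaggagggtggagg
Cdt1 (chr19:67529179-67529278, plus strand): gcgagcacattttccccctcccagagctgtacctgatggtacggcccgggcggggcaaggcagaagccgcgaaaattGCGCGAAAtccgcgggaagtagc
Tyms (chr9:120776054-120776153, minus strand): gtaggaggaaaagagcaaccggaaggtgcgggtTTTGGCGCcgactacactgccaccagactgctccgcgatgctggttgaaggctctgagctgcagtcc
Pole (chr12:52053633-52053732, minus strand): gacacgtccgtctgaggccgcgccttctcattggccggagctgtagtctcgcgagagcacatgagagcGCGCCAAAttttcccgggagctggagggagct
Lig1 (chr1:83243100-83243199, plus strand): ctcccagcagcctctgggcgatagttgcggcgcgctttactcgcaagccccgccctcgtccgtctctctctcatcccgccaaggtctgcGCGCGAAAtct
Cdc45 (chr11:95690108-95690207, plus strand): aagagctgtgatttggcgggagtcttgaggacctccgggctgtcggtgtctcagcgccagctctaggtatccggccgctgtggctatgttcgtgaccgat

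In Gins1 and Mcm2 the capitals are a palindrome, in which the core on one strand overlaps the core on the other, and in Rfc3 cores on opposite strands lie side by side. The share was close in called and other genes, a difference that was not tested: 8 of 21 promoters of genes lower with hCT1 held it (38.1%), and so did 10 of 24 promoters of genes that did not pass (41.7%). The 18 genes with a core had a median log2 fold change of -0.187, with 8 lower, and the 24 without had -0.216, with 12 lower. A core within the span of the printed windows was held by 11 genes, with 7 lower and a median of -0.216. Of the genes without an entry Orc1, Cdc6, Ccne2, E2f1 and Rrm2 were lower, and Orc4, Gins4 and Rpa3 did not pass. None of these is in either share. A CCAAT box (CCAAT, bound by NF-Y) was in 57.8% of the promoters, beside 37.5% of all and 38.2% of those of genes on the platform. A cell cycle homology region (TTTGAA or TTTAAA), known from late cell cycle genes, was in 15.6%. It was in 28.3% of all promoters and 23.7% of those of genes on the platform. In the mitosis and cytokinesis genes described further on, the E2F core was in 1 of 22 promoters (4.55%), the CCAAT box in 15 (68.2%) and the homology region in 21 (95.5%). A match in these windows is a description of letters, not of a bound factor. The search took only exact words, so a promoter counted as without a core may hold a near match, as that of Cdc45 does.

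**Figure D2:**
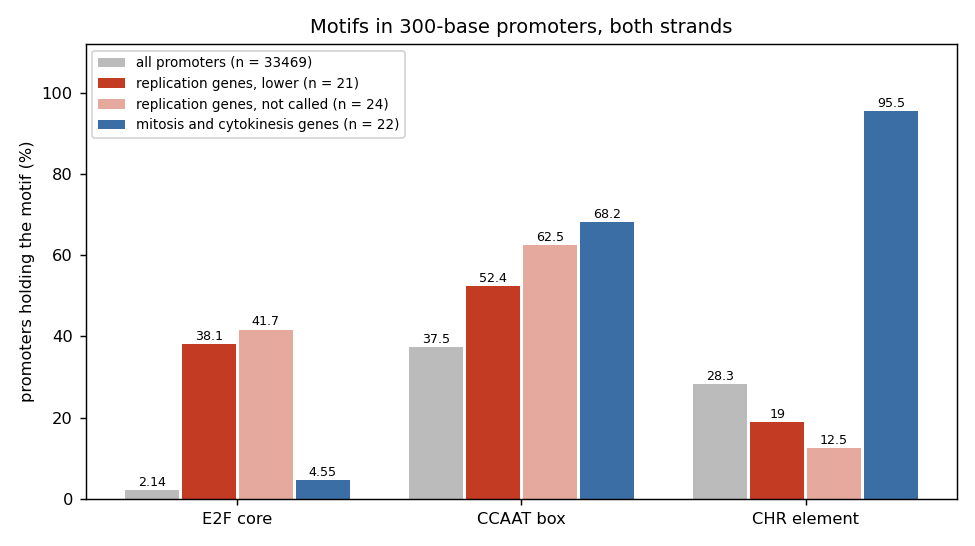
Share of promoters (y axis, percent, from 0) that hold an E2F core, a CCAAT box or a cell cycle homology region (CHR element; x axis) on either strand, with bars for all promoters of the table, the replication genes that were lower with hCT1, those that did not pass, and the mitosis and cytokinesis genes. The E2F core was in 38.1% of promoters of lower genes and 41.7% of those that did not pass, against 2.14% of all promoters.

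Of the origin recognition and licensing genes, 5 of 9 were lower with hCT1 (median log2 fold change -0.25). Beside this and the role counts that follow stand 9.58% lower over all genes and 14.7% over the equally bright ones. Gmnn, geminin, which binds Cdt1 and blocks a second licensing in S and G2 phase, had log2 values of 7.75, 7.77 and 7.88 in Ctrl and 7.31, 7.30 and 7.20 in hCT1 samples. All hCT1 samples were below all Ctrl samples, and Gmnn was 1.44-fold lower (log2 fold change -0.53, SE 0.06, limma adjusted p = 0.000778). Cdt1, the licensing factor that geminin restrains, read 6.83, 6.90 and 6.71 in Ctrl and 6.32, 6.34 and 6.45 in hCT1 samples. The groups did not overlap, and the log2 fold change was -0.44 (SE 0.07, limma adjusted p = 0.00312), so the licensing factor and its inhibitor were both lower. Cdc6, the ATPase that loads MCM together with Cdt1, read 7.43, 7.33 and 7.42 in Ctrl and 7.13, 7.07 and 7.09 in hCT1 samples. Here too the groups were apart, by a smaller difference of -0.30 (SE 0.06, limma adjusted p = 0.00862).

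Within the origin recognition complex the genes of 2 of 6 subunits passed. Orc1, the subunit whose level varies over the cell cycle in mammals, was lower by a log2 fold change of -0.25 (limma adjusted p = 0.0148), and Orc6 by -0.28 (limma adjusted p = 0.0151). Orc1 lost its call without Ctrl replicate 2 or hCT1 replicate 1, and Orc6 without Ctrl replicate 2 or hCT1 replicate 2. Orc2, Orc3, Orc4 and Orc5, the other subunits of the complex, did not pass, with log2 fold changes of -0.06, 0.09, 0.12 and 0.02. Their 95% intervals reached from -0.21 to 0.10 for Orc2 and from -0.09 to 0.33 for Orc4, and their groups overlapped. The difference between subunits was not tested.

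Among the MCM helicase and its activators 6 of 10 genes were lower (median -0.22), among them Cdc45 and the GINS genes Gins1 and Gins2, which act in turning the helicase on. Gins1, a subunit of the GINS complex, had the largest change of the 50 genes. It read 6.06, 6.40 and 6.27 in Ctrl and 5.39, 5.53 and 5.54 in hCT1 samples, so that the lowest Ctrl sample was above the highest hCT1 sample by 0.52. The level fell by 40.8% (log2 fold change -0.76, SE 0.09, limma adjusted p = 0.000767). Gins2 read 7.29, 7.35 and 7.30 in Ctrl against 6.94, 6.82 and 6.86 in hCT1 samples, again with no overlap (log2 fold change -0.44, limma adjusted p = 0.00123). The other subunits of the same complex, Gins3 (-0.19, limma adjusted p = 0.0822) and Gins4 (0.16, limma adjusted p = 0.194), did not pass. Cdc45, which joins MCM and GINS in the active helicase, read 7.19, 7.16 and 7.14 in Ctrl and 6.64, 6.72 and 6.58 in hCT1 samples. The groups were apart by 0.43, and Cdc45 was 1.43-fold lower (log2 fold change -0.52, SE 0.06, limma adjusted p = 0.000589).

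Of the measured genes of the MCM ring, Mcm5 and Mcm2 passed and Mcm6 and Mcm7 did not. Mcm5, a subunit of the ring, read 8.27, 8.26 and 8.18 in Ctrl and 7.85, 7.80 and 7.80 in hCT1 samples. All 3 hCT1 samples were below the Ctrl samples (log2 fold change -0.42, SE 0.06, limma adjusted p = 0.00153). Mcm2 of the ring (-0.22, limma adjusted p = 0.0264) and Mcm10, which acts with Cdc45 as forks start (-0.22, limma adjusted p = 0.0295), also passed, but each did so in only 1 of the 6 fits that left out a sample. Mcm7 (-0.15, 95% interval -0.28 to -0.01) and Mcm6 (-0.14, 95% interval -0.34 to 0.06) did not pass. In Mcm6 the Ctrl samples read 8.27, 8.38 and 8.63, and the lowest of them was below hCT1 replicates 1 and 2, at 8.33 and 8.30.

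**Figure D3:**
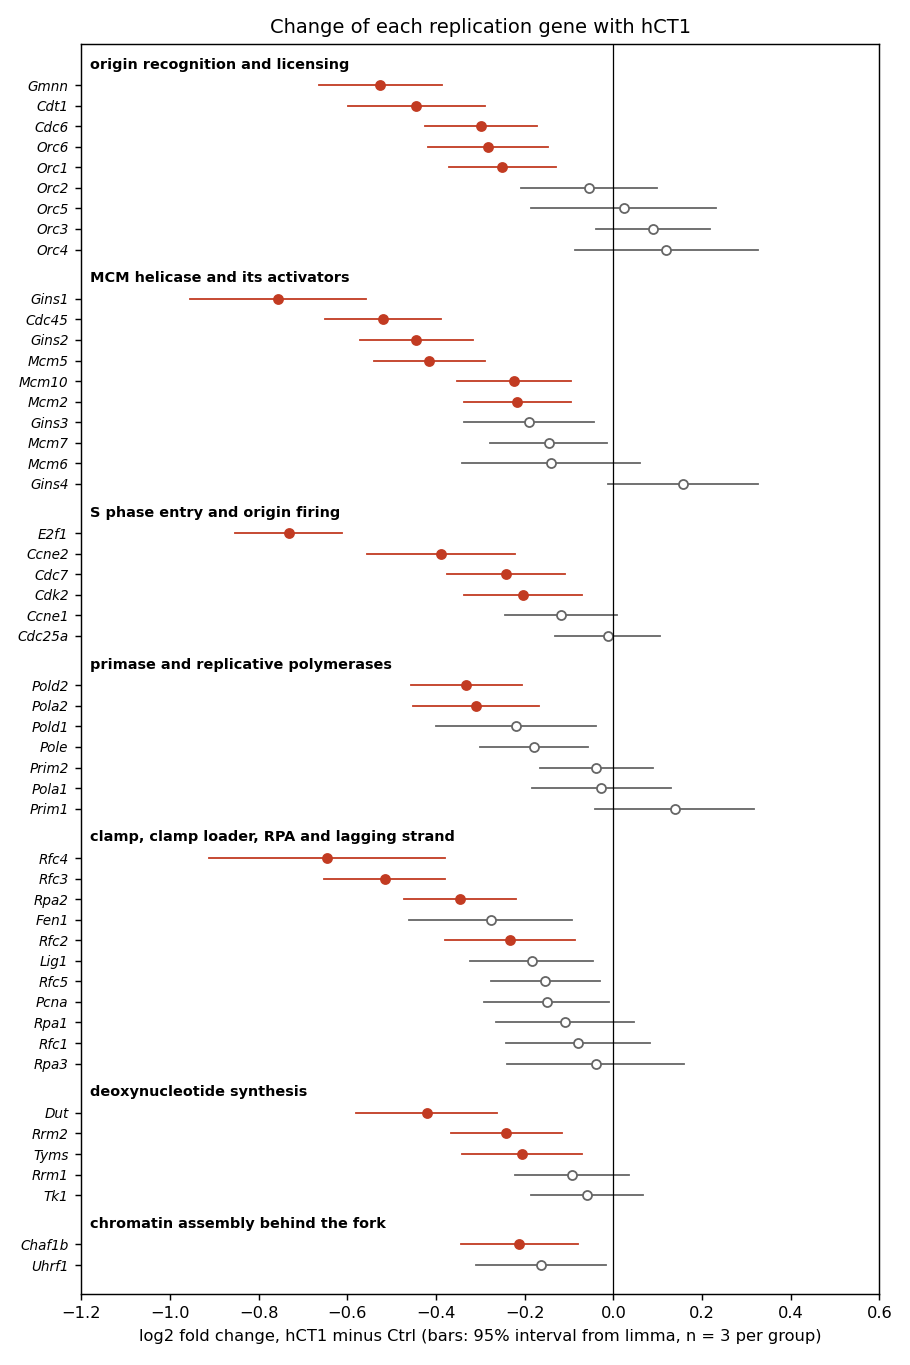
Log2 fold change (hCT1 minus Ctrl, x axis) of each of the 50 replication genes with its 95% interval from limma, grouped by role (y axis); filled points are genes with an adjusted p under 0.05 and the vertical line is at 0. Gins1 (-0.76), E2f1 (-0.73) and Rfc4 (-0.65) lie farthest to the left, and none of the 5 genes to the right of 0 passed.

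Of the genes of S phase entry and origin firing 4 of 6 were lower (median -0.223). E2f1, the transcription factor that activates many replication genes and its own promoter, had the smallest adjusted p of the 50 genes. It read 7.69, 7.71 and 7.65 in Ctrl and 6.94, 6.93 and 6.99 in hCT1 samples, with a gap of 0.66 between the groups. The level fell by 39.8%, or 1.66-fold (log2 fold change -0.73, SE 0.05, limma adjusted p = 5.04e-05). Ccne2, cyclin E2, the partner of Cdk2 at the start of S phase, read 7.91, 7.97 and 8.003 in Ctrl and 7.42, 7.68 and 7.61 in hCT1 samples. Its hCT1 replicate 1 was the lowest, and the groups did not overlap (log2 fold change -0.39, SE 0.07, limma adjusted p = 0.0094). Cdc7, the catalytic subunit of the kinase that fires origins, had a log2 fold change of -0.24 (limma adjusted p = 0.0255), called in 2 of the 6 fits without a sample. Cdk2 had -0.20 (limma adjusted p = 0.0475), called in 1 of them. Ccne1, the other cyclin E gene, had -0.12 (limma adjusted p = 0.193), and Cdc25a, the phosphatase that activates Cdk2, had -0.01 with a 95% interval of -0.13 to 0.11.

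**Figure D4:**
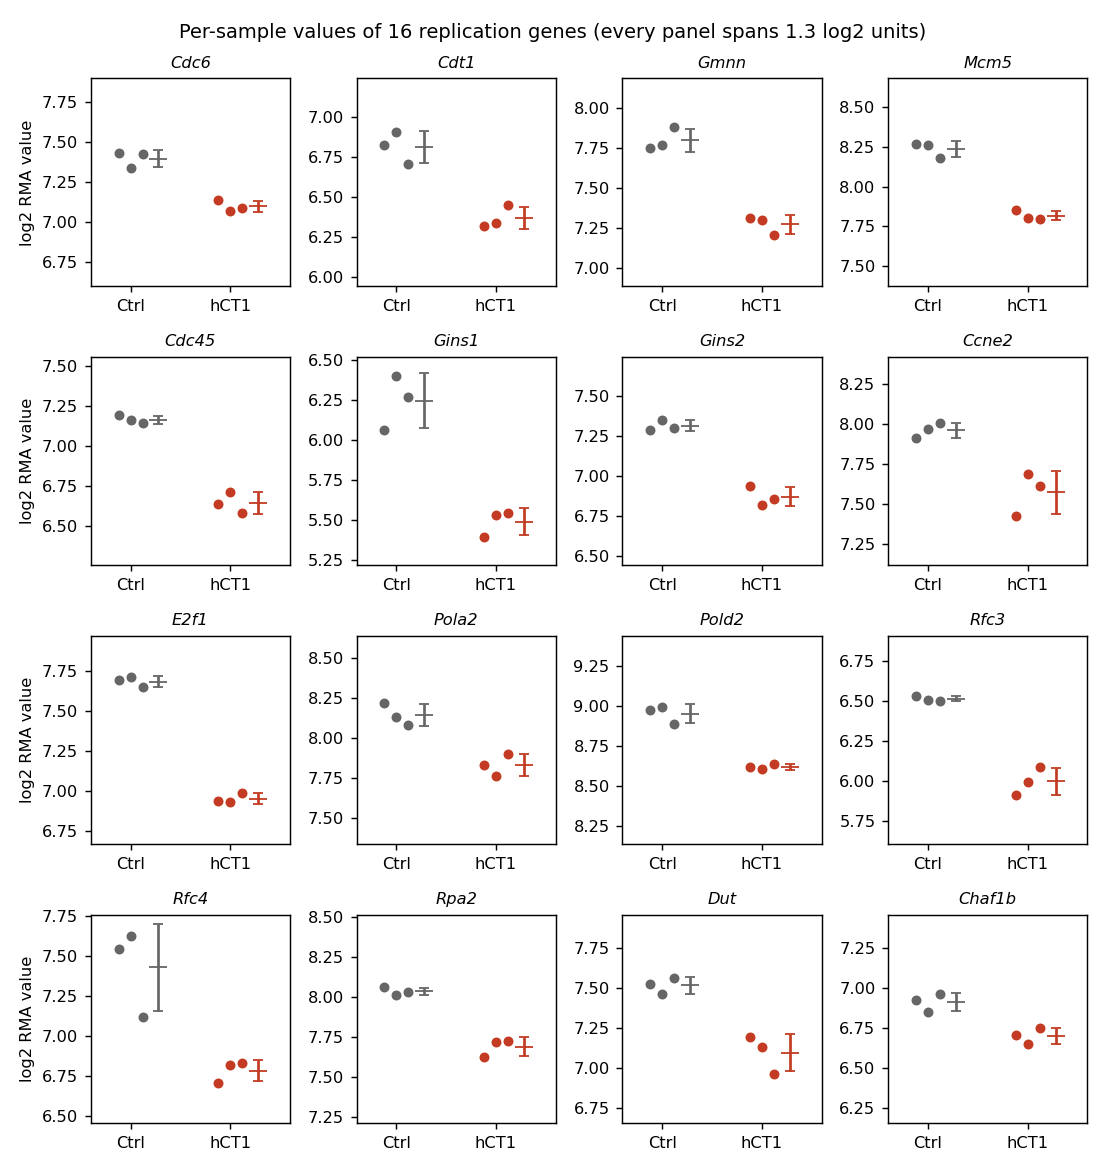
Log2 RMA values (y axis) of the 16 replication genes with the largest called changes overall or in their role, 1 panel a gene, with each of the 3 Ctrl and 3 hCT1 samples as a point and the group mean ± SD (n = 3) beside them. In every panel the 3 hCT1 points are below the 3 Ctrl points, with gaps from 0.10 in Chaf1b to 0.66 in E2f1; values are to be compared within a panel, not between genes.

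Among the primase and the replicative polymerases 2 of 7 genes were lower (median -0.18), beside 14.7% of the equally bright genes. The difference from that share was not tested. Pold2, the accessory subunit of polymerase delta, which copies the lagging strand, read 8.97, 8.99 and 8.89 in Ctrl and 8.62, 8.60 and 8.64 in hCT1 samples. The samples of each group lay close together and the groups were apart (log2 fold change -0.33, limma adjusted p = 0.00493). Pola2, the accessory subunit of polymerase alpha, read 8.22, 8.13 and 8.08 in Ctrl and 7.83, 7.76 and 7.90 in hCT1 samples, also without overlap (log2 fold change -0.31, limma adjusted p = 0.0119). The catalytic subunits did not pass: Pola1 had a log2 fold change of -0.03, Pold1 -0.22 and Pole, of the leading strand polymerase, -0.18 (limma adjusted p = 0.83, 0.101 and 0.0547). For Pold1 the third Ctrl sample read 7.66, within the range of the hCT1 samples, while the other Ctrl samples read 7.91 and 7.94. The primase subunits Prim1 (0.14) and Prim2 (-0.04) did not pass and their groups overlapped.

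In the group of the clamp, its loader, the single-strand binding protein RPA and the lagging strand enzymes, 4 of 11 genes were lower (median -0.184). Over the equally bright genes the share was 14.7%, and the difference from it was not tested. Replication factor C opens Pcna and places it around DNA. Its subunit gene Rfc4 read 7.55, 7.62 and 7.12 in Ctrl and 6.71, 6.82 and 6.83 in hCT1 samples. The third Ctrl sample was far below the other Ctrl samples yet above every hCT1 sample. Rfc4 was 1.56-fold lower (log2 fold change -0.65, SE 0.12, limma adjusted p = 0.00759), and over the fits without 1 sample its log2 fold change ran from -0.80 to -0.55. Rfc3 read 6.53, 6.51 and 6.50 in Ctrl and 5.91, 5.99 and 6.09 in hCT1 samples. The Ctrl samples were nearly equal, and all hCT1 samples were lower (log2 fold change -0.52, limma adjusted p = 0.000788). Rfc2 passed (-0.23, limma adjusted p = 0.0421) but in none of the 6 fits without a sample, and Rfc5 (-0.15) and the large subunit gene Rfc1 (-0.08) did not pass.

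Rpa2, the middle subunit of RPA, read 8.06, 8.02 and 8.03 in Ctrl and 7.63, 7.72 and 7.73 in hCT1 samples. The groups were well apart (log2 fold change -0.35, limma adjusted p = 0.004). The other RPA genes, Rpa1 (-0.11) and Rpa3 (-0.04), did not pass, and a second probe set of Rpa3 read 0.07 without passing. Pcna, the clamp and a common proliferation marker, did not pass either: it read 9.67, 9.76 and 9.84 in Ctrl and 9.58, 9.66 and 9.59 in hCT1 samples. The hCT1 samples were all lower, but the nearest samples of the groups were only 0.0077 apart (log2 fold change -0.15, 95% interval -0.29 to -0.01, limma adjusted p = 0.144). Fen1, the flap endonuclease, and Lig1, the ligase that joins Okazaki fragments, had -0.28 and -0.18 (limma adjusted p = 0.0511 and 0.0779), both with the groups apart.

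Of the deoxynucleotide synthesis genes 3 of 5 were lower (median -0.207). Dut, the dUTPase that keeps uracil out of DNA and supplies dUMP to thymidylate synthase, read 7.53, 7.46 and 7.57 in Ctrl and 7.19, 7.13 and 6.97 in hCT1 samples. No sample overlapped (log2 fold change -0.42, SE 0.07, limma adjusted p = 0.00497). Rrm2, the small subunit of ribonucleotide reductase, read 10.46, 10.47 and 10.56 in Ctrl and 10.24, 10.25 and 10.28 in hCT1 samples. Its brightest probe set had a log2 fold change of -0.24 (limma adjusted p = 0.0206) and a second one -0.27 (limma adjusted p = 0.0148), so that both passed, while the first was called in 3 of the 6 fits without a sample. The large subunit gene Rrm1 did not pass (-0.09, 95% interval -0.22 to 0.04). Tyms, thymidylate synthase, had -0.21 (limma adjusted p = 0.0484) and lost its call whichever sample was left out. Tk1, the thymidine kinase of the salvage pathway, had -0.06 with an interval of -0.19 to 0.07.

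Behind the fork, Chaf1b, a subunit of chromatin assembly factor 1, read 6.92, 6.85 and 6.96 in Ctrl and 6.70, 6.65 and 6.75 in hCT1 samples. The groups were apart by 0.10 (log2 fold change -0.21, limma adjusted p = 0.0404), and the call was lost in each of the 6 fits without a sample. Uhrf1, which recruits the maintenance DNA methyltransferase to newly copied DNA, had -0.16 (limma adjusted p = 0.126). The changes in all roles were small beside the range of array signal: of the 25 called genes, Gins1 fell by 40.8%, the most, and Cdk2 fell by 13.2%, the least.

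Genes outside the set that work in the same processes were counted in the same way, beside 9.58% lower and 5.09% higher over all genes. Those shares belong to the adjusted limma calls, not to the unadjusted counts. Of 16 other replisome and fork protection genes 6 were lower and 0 higher (median -0.205; 9 lower and 0 higher by the unadjusted one-way test). They were led by Chtf18, of an alternative clamp loader (-0.32, limma adjusted p = 0.00577), Clspn, claspin, a mediator of the replication checkpoint (-0.32, limma adjusted p = 0.0143), and Pold4, a small subunit of polymerase delta (-0.27, limma adjusted p = 0.0223). Of 25 other nucleotide synthesis genes, mostly of the purine and pyrimidine pathways that serve RNA as well as DNA, 1 was lower and 1 higher (median -0.017). The lower one was Pfas of purine synthesis (-0.28, limma adjusted p = 0.0308) and the higher one Adss2, which makes adenylosuccinate on the way to AMP (0.39, limma adjusted p = 0.0202).

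Of 7 genes of the E2F and pocket protein family E2f8 (-0.31, limma adjusted p = 0.0204) and E2f7 (-0.28, limma adjusted p = 0.0483), both repressors, were lower, and the median was -0.024. Of 8 replication checkpoint genes Brca1 was lower (-0.29, limma adjusted p = 0.0202). Among 7 genes of replication-coupled chromatin the histone chaperone gene Asf1b was lower (-0.40, limma adjusted p = 0.014) and Hat1, the acetyltransferase of new histone H4, was higher (0.27, limma adjusted p = 0.0243). Mitosis and cytokinesis genes, which act later in the cycle, were lower in 18 of 26 cases with none higher (median -0.292; 20 lower and 0 higher by the unadjusted one-way test). Kif2c, a microtubule depolymerase (-0.57, limma adjusted p = 0.000366), Aurkb, a mitotic kinase (-0.52, limma adjusted p = 0.00069), and Ube2c, a ubiquitin-conjugating enzyme of the anaphase-promoting complex (-0.52, limma adjusted p = 0.00122), led them. Of 11 D-type cyclin, CDK4/6 and CDK inhibitor genes the inhibitors Cdkn2c (-0.44, limma adjusted p = 0.0017) and Cdkn1c (-0.25, limma adjusted p = 0.044) were lower. The median of this list was -0.117, with 10 negative values and 1 positive, and the unadjusted one-way test gave 6 lower and 0 higher. The D-type cyclins and their kinases act upstream of E2F release and are named here after their values were seen. Ccnd1 (0.08), Ccnd2 (-0.07), Ccnd3 (-0.15), Cdk4 (-0.08) and Cdk6 (-0.12) did not pass. Differences between these lists were not tested.

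**Figure D5:**
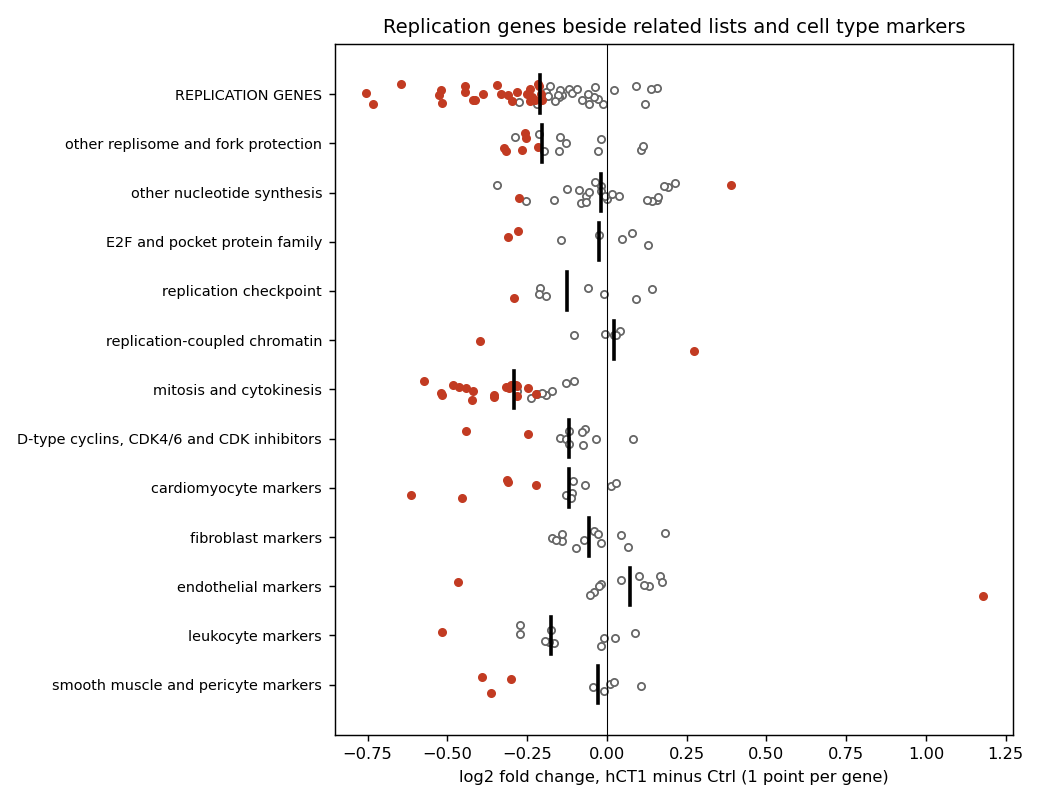
Log2 fold change (hCT1 minus Ctrl) of every measured gene of the 50 replication genes and of the related lists and cell type markers (y axis, 1 row a list), with filled points for genes with an adjusted p under 0.05 by limma and a bar at the median of each list. The median was -0.209 for the replication genes, -0.292 for mitosis and cytokinesis, and -0.017 for the other nucleotide synthesis genes.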

How the data were processed

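Gene expression was measured on 1 Affymetrix array per sample in 3 Ctrl and 3 hCT1 samples, grouped by their titles. The authors deposited log2 values made with RMA in Affymetrix Expression Console (versions not given in the sources used here). RMA equalizes the distribution of probe signal over all arrays, so differences are measured relative to the other probe sets, and it understates differences of dim probe sets. The deposited probe set values still differed somewhat between arrays, with sample medians of 5.5 to 5.58. Precision is limited by the number of arrays, and 3 against 3 samples allow an exact permutation p no lower than 0.1. Dose, age and pre-plating come from the methods of the study.

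Of 29215 probe sets, 15310 had exactly 1 symbol in the platform annotation, 323 had several and 13582 had none; 15279 matched RefSeq (GRCr8) by Entrez identifier. These 15310 were compared with limma 3.58.1 in R 4.3.3 (lmFit, eBayes without trend, 2-sided, Benjamini-Hochberg; statmod 1.5.0 for the robust fit), 1 probe set per gene being counted, the brightest. The genes and lists were chosen with earlier results of these data known, so counts over a list are descriptions. Values are given by sample for called genes among the 15 largest changes and for the largest change of each role, and those of Rrm2, Pcna, Pold1 and Mcm6 were added after they had been seen; of a related list the 3 largest called changes are named. Other genes are named with their fold change.

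The fit was tested on simulated data with known changes and missed most of the smallest. Far fewer probe sets were changed there than were called in these data, so that miss rate does not carry over. In these data Cdk2 passed at -0.20 and Pold1 did not at -0.22, and a gene that did not pass may still have changed. Alternatives were other variance models, array weights, a one-way test, probe set filters, rescaling, other thresholds, averaged probe sets, leaving out each sample and a replicate block.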

Additional observations from a re-analysis of the deposited data

How the results depend on the processing

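None of the 50 replication genes was higher at the threshold under any of the alternatives. The count of lower genes (25) became 15 with an adjusted one-way test, 16 after a second quantile normalization and 14 at a threshold of 0.01, and it ran from 16 to 23 without 1 sample. It was 18 with all probe sets tested and 21 with arrays centred on the median. Under the other alternatives without a block it was 26 to 32. Among these were 28 with a trended robust fit, 28 with array weights and 30 at a threshold of 0.1. The 32 came from the one-way test without adjustment. The share of all genes called was not taken under these alternatives, so the counts have no background beside them. The median log2 fold change (-0.209) became -0.16 after the second quantile normalization and ran from -0.22 to -0.187 without 1 sample; 40 of 50 values were then negative after the normalization, in place of 45. The share of called probe sets that were higher, over all probe sets with 1 symbol, was 44.4% after it and 33.6% before. The causes of these shifts were not tested.

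The same replicate numbers occur in both groups. Deviations of same-numbered samples from their group means correlated at -0.025, 0.046 and -0.285, and those of other pairs at -0.18 to 0.206. With 3 samples a group these values cannot decide whether the numbers pair the samples. With a replicate block 17 genes were lower.

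The 16 genes with the largest called changes overall or in their role gave 288 values, each under an alternative. Of these values 271 stayed on their side of the threshold, 17 lost the call and 0 changed sign. Of the 17, 12 were Chaf1b. The genes were picked by their calls in these same data, so staying called was favoured in advance. The variance models, one-way tests, probe set filters, averaged probe sets, thresholds and block left these fold changes unchanged, so signs could not change there. At a threshold of 0.1 no call could be lost. With the adjusted one-way test the calls of Ccne2 (adjusted p = 0.0812), Pola2 (0.0613), Rfc4 (0.107) and Dut (0.0583) were lost. Precision is limited by 3 arrays a group, and the table has no detection calls.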
